A study of Mus musculus with 28 samples.

Results

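Ionotropic glutamate receptors of the AMPA type were examined in single-cell RNA-seq of 28 samples labelled as mouse cortical cells, through 8 genes taken by name: the pore-forming subunits Gria1, Gria2, Gria3 and Gria4, the transmembrane AMPA receptor regulatory proteins (TARPs) Cacng2, Cacng3 and Cacng8, and the cornichon protein Cnih2. All 8 genes were present in the table of exonic counts, which held 23453 genes, and in the table of intronic counts, which held 20422 genes. By the sample labels, 8 astrocytes and 12 neurons came from primary cultures of C57/BL6 cortex and were taken up with a pipette, and 8 interneurons came from acute cortical slices of C57/BL6/N mice and were drawn into a patch-clamp pipette. The labels give no treatment for any group. The study's methods give the cultures as dispersed cells of mouse embryos of both sexes, while the labels' protocol text for them describes a perfused 3-month-old male mouse, as the methods do for fixed brain sections. The age of the slice animals is not given in the sources used here, and no label says which animal or culture a cell came from, so cells of one kind may share one. The sample labels place the cultured cells and the slice cells with different library kits, TruSeq Nano DNA and TruSeq Stranded, and with different sequencers, so the kind of preparation and the kind of cell cannot be told apart.

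The 28 columns of the count tables carry codes that occur in no sample label, and 0 columns were matched to a sample. The columns were therefore described in 3 blocks set by their codes. The first BRP block (BRP564 and BRP566 to BRP572) has 8 columns, the second BRP block (the other BRP codes) has 12, and the F block has 8. These numbers equal those of the labelled astrocytes, neurons and interneurons, and the blocks are presumed to be those cells. The presumption rests on block size and on marker genes, so no test between blocks was made, and each value below is given per column or as the lowest, the median and the highest of a block.

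AMPA receptors carry most fast excitatory transmission in the brain. Each is a tetramer of GRIA subunits, and the GRIA2 subunit, when its transcript has been edited from a glutamine to an arginine codon in the pore loop, makes the channel nearly impermeable to calcium. TARPs and cornichons bind the assembled receptor, help it reach the synapse and slow its closing, and the TARP encoded by Cacng2 is known as stargazin.

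The 4 subunit genes share the coding stretch of the pore loop that holds the edited position. It is shown because the subunit shares below include that of Gria2, the edited subunit, with the glutamine codon at that position in capitals. The shares are of RNA counts, and the make-up of receptor proteins was not measured. The stretches are from GENCODE M21 transcripts on GRCm38, are 45 bases long and lie in coding exon sequence of exon 11 of each gene. Gria1 was read from chr11:57243073-57243117 on the plus strand, Gria2 from chr3:80706890-80706934 on the minus strand, Gria3 from chrX:41610244-41610288 on the plus strand and Gria4 from chr9:4464116-4464160 on the minus strand.
Gria1: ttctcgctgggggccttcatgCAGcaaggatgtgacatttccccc
Gria2: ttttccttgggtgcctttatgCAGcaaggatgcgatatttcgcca
Gria3: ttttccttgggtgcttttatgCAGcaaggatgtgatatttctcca
Gria4: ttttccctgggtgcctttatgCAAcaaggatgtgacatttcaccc
Over these 45 bases, Gria2 and Gria3 differed at 3 positions, while Gria1 differed from Gria2 and from Gria3 at 9. In the Gria2 protein the marked codon is residue 607. Counts per gene hold no bases of the reads, so the extent of editing was not measured here.

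Upstream of Gria2, a stretch with the binding letters of the repressor REST (the RE1 element, searched on both strands with any base at its middle 2 positions) was found in the RefSeq promoter windows on GRCm38.p6, which run from 250 bases before to 50 after a start. It is shown because REST is known for holding neuronal genes down outside neurons. The match, in capitals, has the element on the opposite strand and lies between 156 and 171 bases upstream of the annotated start, in chr3:80802962-80803036 on the minus strand.
Gria2 upstream stretch: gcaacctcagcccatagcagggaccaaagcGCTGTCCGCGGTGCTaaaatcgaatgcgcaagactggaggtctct
These letters occurred in 10 of 32851 windows (0.0304%), and in 1 of the 6 member genes that have a window in the table. A match of letters is a description, and binding was not measured here. Any part of REST in the levels of the blocks was not tested.

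Exonic counts per column ran from 838343 in F16 to 26770944 in BRP537. The F block was the shallowest, with 838343 to 14831505 exonic counts, and had the most variable intronic part of all counts, from 5.31% in F1 to 63.0% in F24. F11 and F12 stood apart as a pair: the Pearson correlation of their log2(CPM + 1) values (CPM being counts scaled to an exonic total of 1000000 per column) was 0.954, the highest of all pairs of columns, while the median pair within the F block had 0.276. Their counts differed by more than sampling noise, with a chi-square of 17.6 per degree of freedom. This was the lowest of all pairs, where the next lowest was 219 and the other F pairs had 1261 to 4011. Whether F11 and F12 are libraries of 1 cell was not tested. Both were kept, and values of the F block are also given without F12.

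The marker lists were read as summed CPM per column. The 9 astrocyte markers summed to between 2674 and 7155 in the first BRP block, with all 9 genes detected at 10 or more counts in every column. They summed to 208 to 2463 in the second BRP block and 1.19 to 4363 in the F block. Of these markers only Slc1a2 had a higher median in the second BRP block, 804 CPM, than in the first, 192 CPM. Slc1a2 made 2459 of the 2463 CPM in BRP538 and 4350 of the 4363 CPM in F7. The 8 neuron markers were at 311 to 801 in the first BRP block, 4900 to 11070 in the second and 1608 to 17800 in the F block. In the first BRP block Map2, at 358 CPM, and Stmn2, at 194 CPM, had the highest medians, while those of Snap25 and Rbfox3 were 0. Rbfox3, Nefl and Nefm had F medians of 0.125, 0.527 and 0.410 CPM, against 150, 795 and 91.1 CPM in the second BRP block. The 9 GABAergic markers had medians of 31.5, 49.4 and 4531 CPM in the first BRP, second BRP and F blocks, and the 6 glutamatergic markers 0.302, 600 and 2.19 CPM. Among the GABAergic markers, Gad1 had an F median of 2754 CPM and Slc32a1 of 531 CPM. Gad2 went the other way, with a median of 10.2 CPM in the F block and 36.3 CPM in the second BRP block. Every other GABAergic marker had an F median of 0.998 CPM or less.

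Some columns carried markers that go against the presumed identity of their block. BRP566, in the first BRP block, had Slc17a6 at 133 CPM, with 2095 counts. Its glutamatergic markers summed to 144 CPM, where the block median was 0.302 CPM. BRP528, in the second BRP block, had Gad1 at 1136 CPM, Gad2 at 780 CPM and Slc32a1 at 798 CPM, the genes for GABA synthesis and vesicular loading, and listed both vesicular glutamate transporters Slc17a6 and Slc17a7 at 0. F7 had the oligodendrocyte-lineage factor Olig1 at 3210 CPM beside Gad1 at 1092 CPM, F16 had the microglial receptor Csf1r at 2093 CPM beside Snap25 at 15297 CPM, and F11 and F12 had Gad1 at 18.9 and 0.739 CPM but Slc32a1 at 443 and 618 CPM and the astrocytic factor Sox9 at 1063 and 1180 CPM. The 8 oligodendrocyte-lineage markers summed to 571 to 1315 CPM in the first BRP block, and to 1315 CPM in BRP529, 1045 CPM in BRP541 and 749 CPM in BRP528 of the second. The 4 progenitor and cycling markers summed to 806 to 1886 CPM in the first BRP block, with all 4 detected in every column, against medians of 15.6 CPM in the second and 5.55 CPM in the F block. The part of these markers in the values below was not tested.

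**Figure D1:**
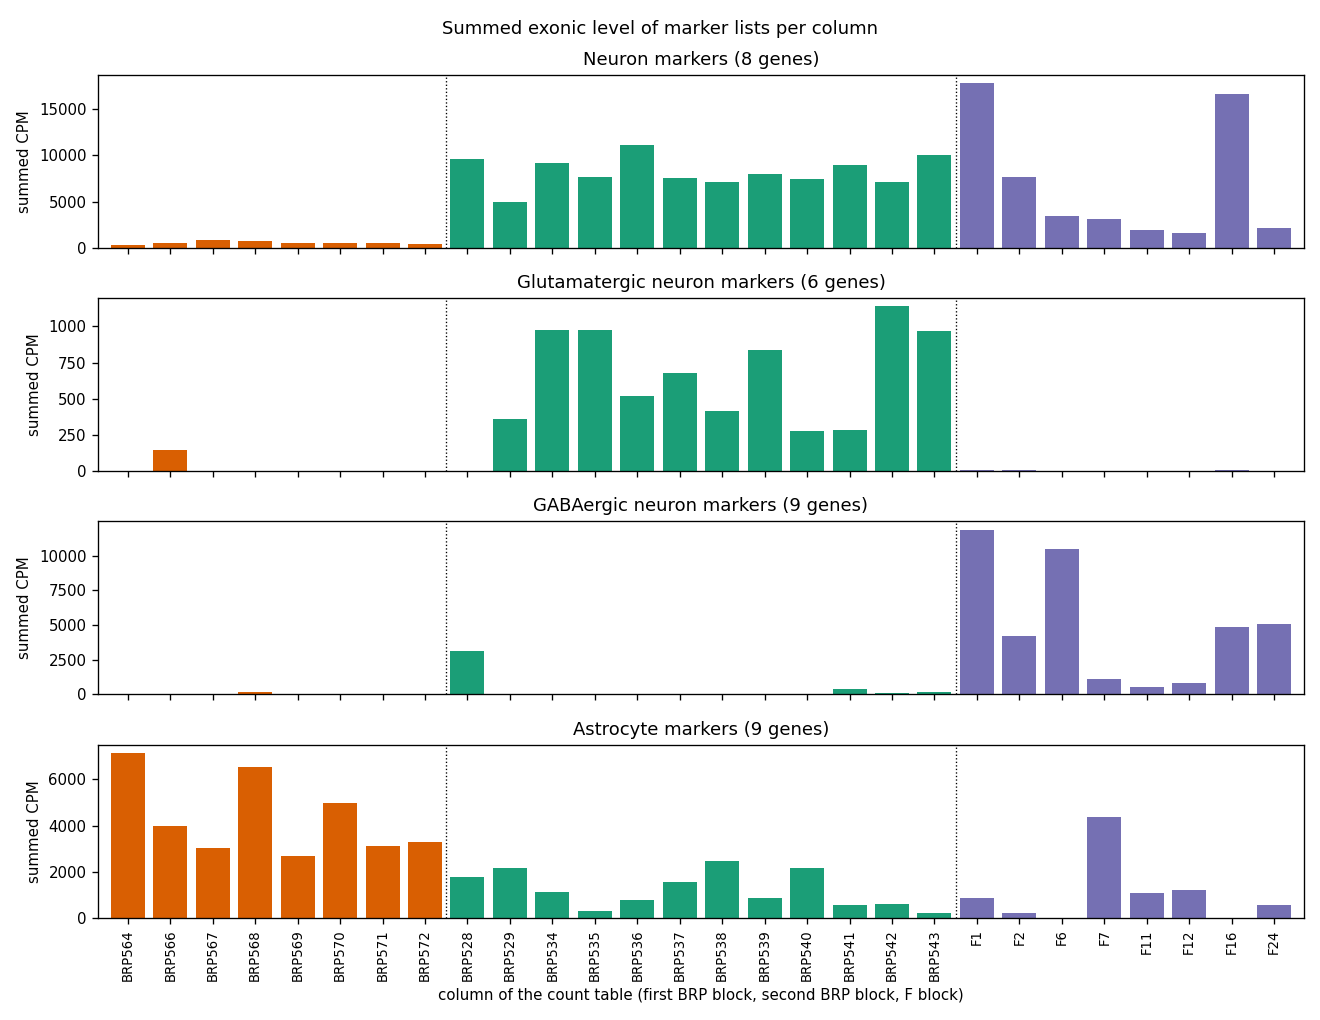
Summed exonic CPM of 4 marker lists (vertical axes) in each of the 28 columns (horizontal axis), coloured by block, with dotted lines between blocks. The tallest GABAergic bar of the second BRP block is BRP528, at 3124 CPM, which has 0.598 CPM of glutamatergic markers.

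All 4 subunit genes were detected in all 3 blocks, and the auxiliary genes mainly in the second BRP block. A gene was called detected in a block at 10 or more exonic counts in at least 50% of its columns. In the first BRP block the 4 Gria genes and none of the auxiliary genes were detected, where 45.7% of all genes were. In the second BRP block 7 of the 8 genes were detected, Cacng8 being the exception, where 40.5% of all genes were. In the F block the 4 Gria genes and Cnih2 were detected, where 5.88% of all genes were. The same number, 5, was detected without F12. Gria4 in the first BRP block passed at exactly 50% of the columns, with 12 counts in BRP572 and 0 in BRP564 and BRP569. Cnih2 in the F block also passed at exactly 50%, with 12 counts in F2.

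Together, the 4 Gria genes reached 29.4 CPM at the lowest, 185 CPM in the median column and 473 CPM at the highest in the first BRP block. In the second BRP block their sum was 1688, 2879 and 3839 CPM in the same order, and no column of these 2 blocks overlapped. The share of all genes that separate the BRP blocks in this way was not counted. Here and below, such a gap is a description and is not shown to be particular to the genes named. In the F block the sum ran from 423 CPM in F16 through a median of 3865 CPM to 14867 CPM in F11, with 13710 CPM in F12, and without F12 the median was 3772 CPM. With DESeq2 size factors the medians were 2017 CPM in the second BRP block and 10601 CPM in the F block. The F columns thus spanned a wider range than either BRP block, and F16, with 355 Gria counts in all, lay within the range of the first BRP block.

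Gria2, the subunit that sets calcium permeability, separated the BRP blocks. In the first BRP block it ran from 9.49 CPM in BRP564 through a median of 105 CPM to 359 CPM in BRP567. In the second BRP block it ran from 461 CPM in BRP528 through a median of 2148 CPM to 2942 CPM in BRP536. Every column of the second block was above every column of the first, and how common this is among all genes was not counted. BRP528, the column of the second block with the highest GABAergic marker sum, was its lowest in Gria2. BRP541, next in that sum at 409 CPM, had Gria2 at 2781 CPM. Its sum came from Gad2 at 340 CPM and Sst at 69.3 CPM. Unlike BRP528, BRP541 had Gad1 and Slc32a1 at 0 and Slc17a6 at 213 CPM. Among the F columns Gria2 was at 610 CPM in F1, 1411 in F2, 2462 in F6, 5069 in F7, 8304 in F11, 7437 in F12, 1.19 in F16 and 1220 in F24. F16 had 1 exonic Gria2 count, under the 3.58 CPM that 3 counts stand for at its depth, so its level was not measurable. At its median, Gria2 stood above 91.9% of all genes in the first BRP block, 99.9% in the second and 99.9% in the F block.

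Gria1, the subunit best known from forebrain principal cells and synaptic plasticity, was at 1.31 CPM in BRP569, a median of 9.82 CPM and 98.2 CPM in BRP568 in the first BRP block. In the second it ran from 159 CPM in BRP538 through 524 CPM to 1124 CPM in BRP528, again without overlap between the BRP blocks. The column highest in Gria1 was thus the one lowest in Gria2. Among the F columns Gria1 was at 1600 CPM in F1, 504 in F2, 93.6 in F6, 171 in F7, 2253 in F11, 2035 in F12, 268 in F16 and 1425 in F24, and its median was 965 CPM with F12 and 504 CPM without it. F6 alone fell within the range of the first BRP block.

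By the ratio of block medians, Gria3 was the subunit in which the BRP blocks lay closest. Its lowest, median and highest levels were 17.9, 82.4 and 157 CPM in the first block and 84.2, 295 and 715 CPM in the second, so that the ranges overlapped. Of the F columns, Gria3 was at 1418 CPM in F1, 900 in F2, 14.9 in F6, 4310 in F11, 4238 in F12, 153 in F16 and 250 in F24. F7 had 0 exonic Gria3 counts, which allows a level of up to 0.345 CPM, beside 44056 counts of Gria2. The median of the F block was 575 CPM and dropped to 250 CPM without F12.

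Gria4, a subunit known from fast-spiking interneurons, was the lowest of the 4 genes per kb of exon in 23 of the 28 columns. It was at 0 to 9.44 CPM in the first BRP block with a median of 0.428 CPM, and at 1.17 to 102 CPM with a median of 27.9 CPM in the second. As for Gria3, the ranges of the BRP blocks overlapped. Of the F columns, Gria4 was at 10.7 CPM in F1, 203 in F2, 1202 in F6, 125 in F7, 1.19 in F16 and 1063 in F24. F11 and F12 had 0 exonic Gria4 counts, which allows up to 0.683 and 1.11 CPM. F2, F6, F7 and F24 thus lay above every BRP column, and the F median of 67.9 CPM became 125 CPM without F12.

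**Figure D2:**
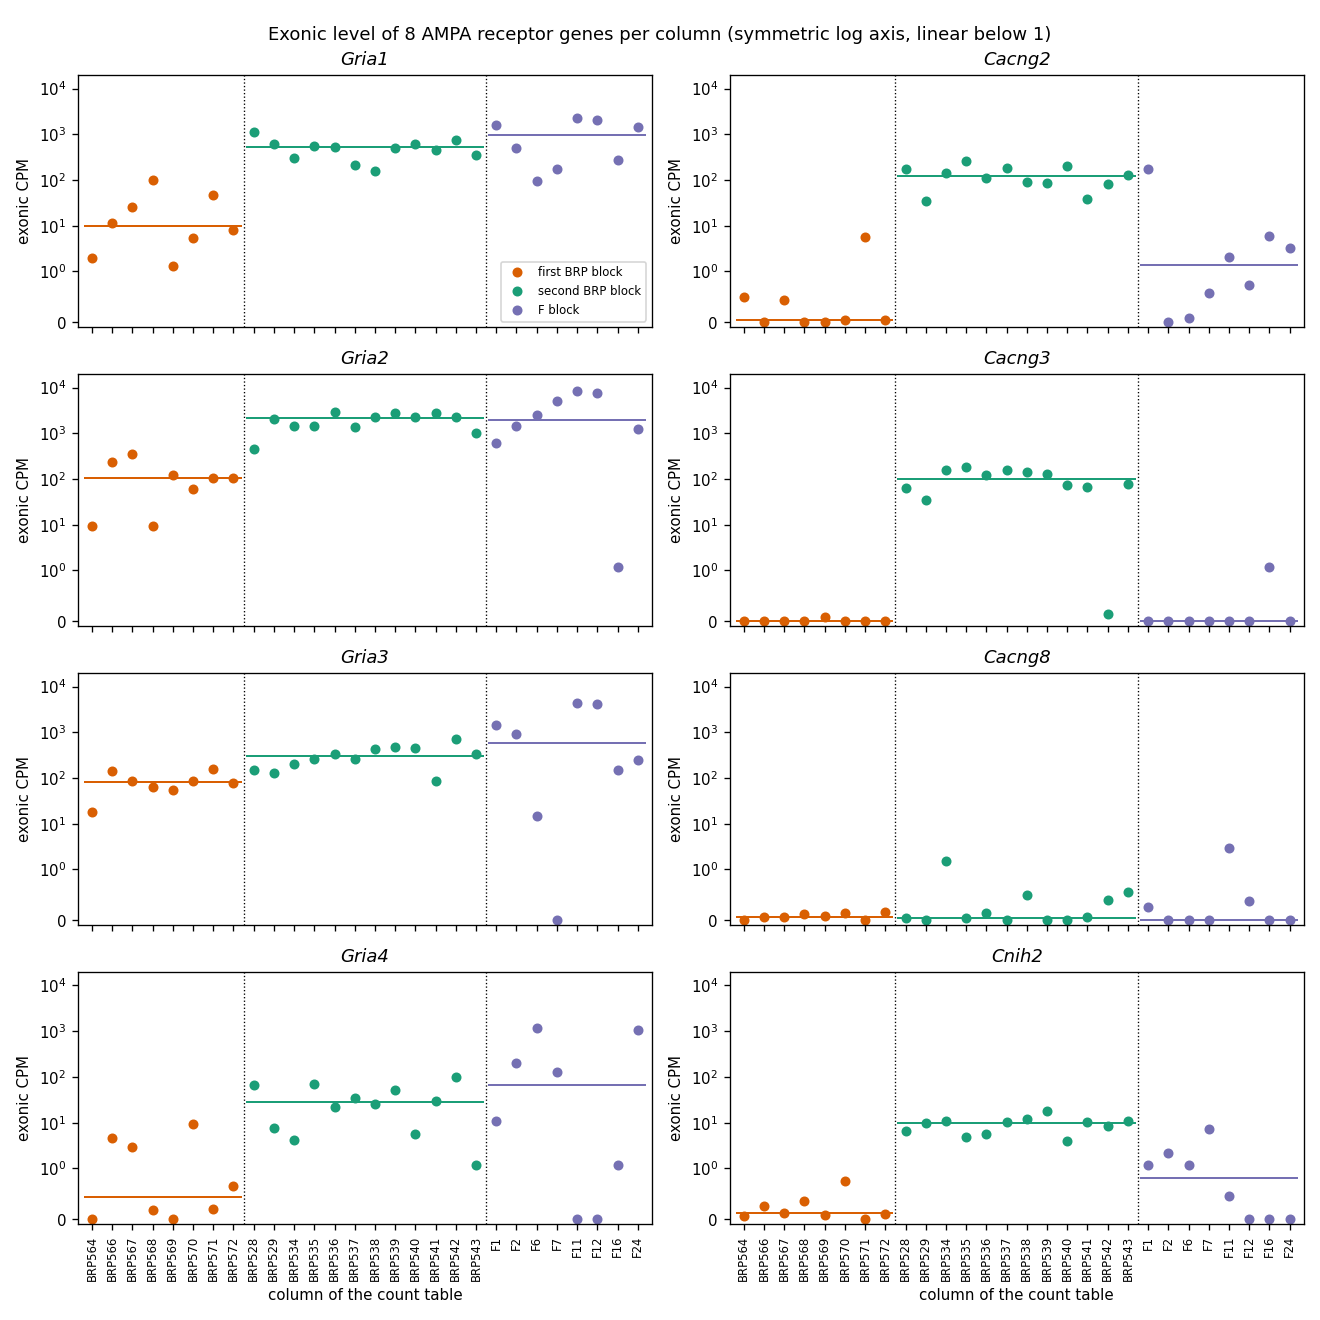
Exonic level of each of the 8 genes (vertical axes, CPM on a symmetric log scale that is linear below 1) in each column (horizontal axis). Points are single columns, coloured by block, and horizontal lines are block medians. Gria2 separates the BRP blocks at 359 and 461 CPM, and Cacng3 lies at 1.19 CPM or less in every column outside the second BRP block.

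Subunit shares were formed within each column from exonic counts divided by exonic length, since Gria2 has 15.5 kb of annotated exon, Gria3 9.86 kb, Gria4 6.30 kb and Gria1 6.04 kb. In the second BRP block Gria2 held the largest share in 10 of 12 columns, from 40.0% in BRP542 to 66.8% in BRP541 among those 10, and the median of the block was 54.3%. BRP528 and BRP535 were the exceptions. In BRP528 Gria1 held 77.0% and Gria2 12.3%, and in BRP535 Gria1 held 42.0% and Gria2 41.3%. By counts or coding length Gria2 led in 11 of the 12, BRP535 included. Gria1 was next in the block with a median of 32.9%, followed by Gria3 with 14.03% and Gria4 with 1.81%.

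In the first BRP block Gria3 held the largest share per kb in 4 columns, Gria2 in 3 and Gria1 in 1, whereas without division by length, or by coding length, Gria2 led in 4 and Gria3 in 3. Gria3 ran from 23.8% in BRP567 to 65.9% in BRP564 with a median of 47.3%. Gria2 ran from 2.65% in BRP568 to 63.3% in BRP567 with a median of 34.1%. BRP568 was the column in which Gria1 led, with 70.0%, while the next highest Gria1 share of the block was 25.6%. The median Gria3 share was thus higher in this block than the 14.03% of the second, and the highest Gria3 share of the second block, 21.4% in BRP543, lay below the lowest of the first. By counts the blocks overlapped, with 19.6% in BRP543 and 18.1% in BRP567, as they did by coding length.

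The F block had no common order. Gria1 led in F1 with 58.9%, in F16 with 73.8% and in F24 with 46.4%. Gria2 led in F7 with 87.1%, in F11 with 39.7% and in F12 with 38.4%. Gria4 led in F6 with 52.1%, and held 33.2% in F24. By counts F6 had 65.3% Gria2 and 31.9% Gria4, and by that scale or by coding length Gria4 led in 0 of the 28 columns. In F2 Gria3, Gria2 and Gria1 held 30.7%, 30.5% and 28.02%, which leaves them close to equal.

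Dividing by length decides part of these orders. As a plain share of counts, the median Gria2 share was 46.3%, 72.5% and 50.5% in the first BRP, second BRP and F blocks, against 34.1%, 54.3% and 34.5% per kb. The counts behind a share set its precision: in F16 the 225 Gria1 counts of 355 gave 63.4% with an exact (Clopper-Pearson) 95% interval of 58.1% to 68.4%, while in F1 the interval of the Gria1 share of counts, 44.0%, was 43.6% to 44.4%. The libraries were amplified and the counts are not known to be of separate molecules, so these intervals cover counting error only.

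**Figure D3:**
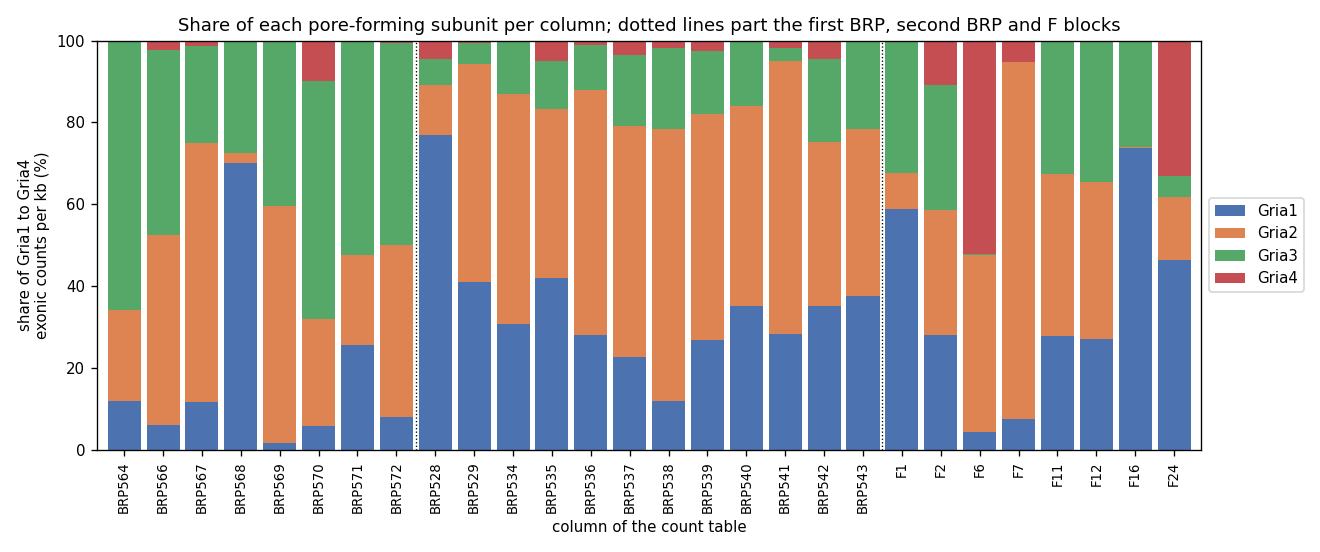
Share of each pore-forming subunit (vertical axis, percent of the summed exonic counts per kb of Gria1 to Gria4) in each column (horizontal axis), stacked to 100%. Gria2 takes 40.0% or more in 11 of the 12 columns of the second BRP block, Gria3 at least 23.8% in every column of the first, and the F columns differ in their leading subunit.

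Cacng2, stargazin, was at 34.3 CPM in BRP529, a median of 121 CPM and 260 CPM in BRP535 in the second BRP block, with at least 687 exonic counts in every column. In the first BRP block it was at 5.61 CPM in BRP571 and at 0.496 CPM or less in the other 7 columns. Of the F columns, Cacng2 was at 172 CPM in F1, with 2551 counts, and at 0 to 5.96 CPM in the other 7, with at most 9 counts each. F1 was the only F column within the range of the second BRP block. The transcript of Cacng2 overlaps the antisense gene A730060N03Rik, and the strand setting of the counting is not given in the sources used here, so counts of the pair may be mixed.

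Cacng3, a close relative of Cacng2, was at 33.9 to 185 CPM in 11 columns of the second BRP block and at 0.146 CPM, 3 counts, in BRP542, with a block median of 100.0 CPM. Outside that block it had 1 exonic count in BRP569, 1 in F16 and 0 in the other 14 columns. BRP528, the column of the block with the highest GABAergic marker sum, had 63.4 CPM of Cacng3. Over the 12 columns of the block, Spearman's rho between Cacng2 and Cacng3 was 0.566. These columns share one scaling to the column total, and the value is a description.

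Cacng8, the third TARP, was at or near 0 in exonic counts throughout. Its highest exonic level was 2.96 CPM, 13 counts, in F11, followed by 1.52 CPM, 32 counts, in BRP534, and the first BRP block had at most 3 counts per column. Cnih2, which like the TARPs slows the closing of the channel, was detected in all 12 columns of the second BRP block, at 3.89 CPM in BRP540, a median of 9.99 CPM and 18.1 CPM in BRP539. It stayed at 0.758 CPM or less in the first BRP block, and in the F block it was at 7.25 CPM in F7, at 2.168 CPM or less in the other columns, and at 0 in F12, F16 and F24. Per kb of exon, where levels can be set between genes, the medians of the second BRP block were 36.0 CPM per kb for Cacng3, 22.0 for Cacng2, 7.29 for Cnih2 and 0.0227 for Cacng8, beside 138 for Gria2.

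As a sum, the 4 auxiliary genes had medians of 0.522 CPM in the first BRP block, 245 CPM in the second and 4.39 CPM in the F block. The lowest column of the second block, BRP529 with 78.0 CPM, was above every column of the first, whose highest was 5.61 CPM, and above every F column other than F1 with 173 CPM. With intronic counts added, the medians were 33.3 CPM in the first BRP block and 205 CPM in the F block. With F12 left out, the F median was 5.47 CPM.

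The intronic table, which counts reads that fall in introns, gave another order. Of the exonic and intronic counts of the 4 Gria genes, the median intronic part was 37.1% in the first BRP block, 16.5% in the second and 37.0% in the F block. Divided by the intronic part over all genes of the same column, these medians were 4.44, 0.963 and 0.923. In the first BRP block this ratio was above 1 in every column, from 2.30 in BRP569 to 9.59 in BRP564. It ran from 0.588 in BRP538 to 1.81 in BRP528 in the second and from 0.471 in F11 to 3.05 in F1 in the F block, so that single columns of these blocks lay on either side of 1.

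Gria4 stood out among the subunits by the intronic part of its counts. Its median intronic part was 94.4% in the first BRP block, 86.2% in the second and 92.8% in the F block, against 26.1%, 3.52% and 21.1% for Gria2. F1 had 10401 intronic counts of Gria4 beside 159 exonic, F16 had 8622 beside 1, and F11 and F12 had 8676 and 5524 beside 0. Per kb of intron, Gria4 had a median level of 1.82 intronic CPM, scaled to the intronic total, in the second BRP block and 6.88 in the F block. On that scale the leading subunit differed between columns. Of the 4 subunits' intronic counts per kb of intron, its median share was 9.54%, 17.9% and 35.3% in the first BRP, second BRP and F blocks. The Gria2 share was 42.8%, 35.0% and 56.8% in the same order. Without F12 the F medians were 48.8% for Gria4 and 39.4% for Gria2. Gria4 led in F1 with 99.3%, in F16 with 98.0%, in F24 with 81.4% and in F6 with 48.8%. It also led in BRP528 with 62.2% and in BRP537 with 53.3%, and in no other column. Gria4 also has the longest introns of the 8 genes, 372 kb in all, and Gria2 has 106 kb.

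Cacng8 had almost only intronic counts in the first BRP block. It ran from 65.0 intronic CPM in BRP568 through a median of 375 to 855 intronic CPM in BRP571, 77 to 1325 counts, where the exonic table gave 0 to 3 counts. In the second BRP block the intronic level ran from 0.294 to 522 CPM with a median of 32.0, and in the F block from 0 to 28.2 CPM. Cacng8 overlaps the antisense gene Gm44151, so that counts of either gene may be in these values.

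Other auxiliary genes had many intronic and few or no exonic counts in single F columns. F6 had 21853 intronic counts of Cacng2 beside 1 exonic, and F7 had 4630 beside 5. F24 had 7474 intronic counts of Cacng3 beside 0 exonic, and F16 had 751 beside 1. Cnih2, the shortest of the 8 genes with 4.29 kb of intron, had at most 3 intronic counts in any column. In BRP542, the column of the second BRP block with 3 exonic counts of Cacng3, there were 1039 intronic counts of that gene.

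**Figure D4:**
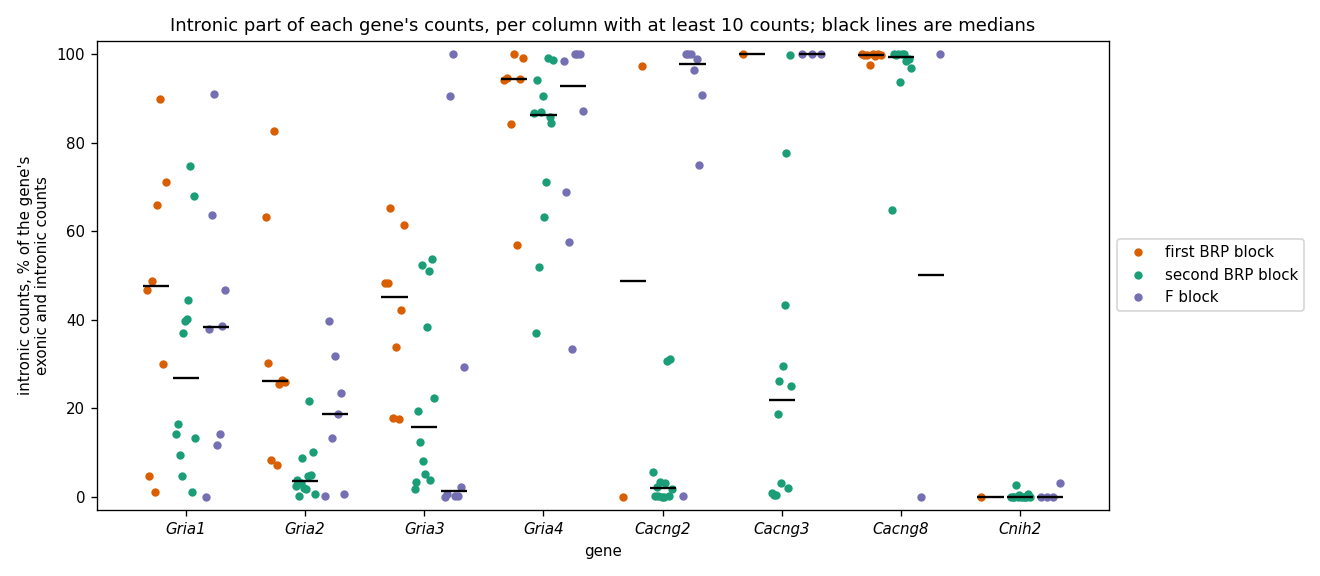
Intronic part of each gene's counts (vertical axis, percent of its exonic and intronic counts) for the 8 genes (horizontal axis). Points are columns with at least 10 counts of the gene, coloured by block, and black lines are medians over the points shown. Gria4 has medians of 86.2% or more in every block, Cacng8 lies at 97.5% or more in every column of the first BRP block, and Cnih2 lies at 3.08% or less throughout.

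Of 22 other auxiliary and interacting membrane proteins, 21 were in the exonic table, with Shisa8 not matched. By the same rule, 11 (52.4%) were detected in the first BRP block, 16 (76.2%) in the second and 3 (14.3%) in the F block, where 45.7%, 40.5% and 5.88% of all genes were, and the median of the genes' median levels was 1.29, 19.0 and 0 CPM, where over all genes it was 0.0524, 0 and 0 CPM. Olfm1, a secreted protein found in native receptor complexes, was at medians of 193, 2836 and 8.98 CPM. Cnih, the older symbol of Cnih1, a cornichon of the early secretory pathway, was at 177, 148 and 0 CPM, and Abhd12, a lipase, at 21.4, 102 and 12.8 CPM.

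Of 17 scaffold, trafficking and clustering partners, 9 (52.9%) were detected in the first BRP block, 14 (82.4%) in the second and 2 (11.8%) in the F block, beside the same 45.7%, 40.5% and 5.88% of all genes. The medians of the genes' medians were 3.63, 93.0 and 0.0337 CPM, beside 0.0524, 0 and 0 CPM over all genes. Nsf, the ATPase that binds GRIA2, was at medians of 60.4, 1063 and 128 CPM. Dlg2, a postsynaptic scaffold of the PSD-95 family, was at 0.0255, 227 and 1.17 CPM, whereas its relative Dlg1 was at 104, 197 and 0.0575 CPM. Vwc2l had at most 0.380 CPM in any column.

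Of the editing enzymes, Adarb1, whose product ADAR2 edits the Gria2 pore-loop codon shown above, was at a median of 0.484 CPM in the first BRP block, with 31.9 CPM at the highest in BRP570. In the second BRP block it was at 56.1 CPM at the lowest, 240 CPM in the median column and 408 CPM in BRP542, so that every column of the second block was above every column of the first. In the F block its median was 0.0337 CPM and its highest level 319 CPM, in F11. Adar was at medians of 45.5, 60.1 and 3.53 CPM, and Adarb2 had at most 1.61 CPM in any column.

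The genes most like each subunit in pattern were sought by Spearman's rho of exonic CPM over the 28 columns, among 8541 genes with at least 10 counts in at least 14 columns. These are descriptions over columns that differ in block and depth and share the scaling. For Gria2 they were Ttc3, with rho of 0.883, Gabbr1 with 0.842, a GABA-B receptor subunit, and Scn2a1 with 0.838, a neuronal sodium channel. For Gria1 they were Fam169a with 0.816, Atp6v1g2 with 0.788 and Rab3b with 0.774, for Gria3 Fam169a with 0.810, Slc12a5 with 0.807 and Trim37 with 0.770, and for Gria4 Gm15800 with 0.784, Ppfia4 with 0.772 and Epb4.1l3 with 0.753. Within the 12 columns of the second BRP block, rho between Gria2 and Ttc3 was 0.238 and between Gria4 and Ppfia4 0.762. Among the subunits themselves rho over the 28 columns was highest for Gria1 and Gria3, at 0.722, and was -0.00699 for the same pair within the second BRP block.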

How the data were processed

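The authors deposited whole-number exonic and intronic read counts per gene for 28 samples labelled as single cells, without normalization. The submitters' processing notes name bcl2fastq 2.17, STAR 2.4.0 and mm10. The counting tool, annotation and strand setting are not given in the sources used here, and mixing of overlapping genes or loss of reads at unannotated ends would change the levels. The column codes matched no sample label, so 0 of 28 columns could be placed in a labelled group, no column was compared by a test, and values are given per column.

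The 8 genes, the gene and marker lists and the 3 blocks were chosen with earlier results of these data known. From each list the 3 genes with the highest median CPM over the 28 columns are named, plus any at 0 in all columns, and for each Gria gene the 3 most alike. Marker genes named for single columns, and Vwc2l, were picked after their values were seen. CPM are counts scaled to 1000000 per column within each table, with no filter. Exonic totals ran from 838343 to 26770944, so 3 counts, the limit that a count of 0 allows, stand for 3.58 CPM in the shallowest column. Lengths are from GENCODE M21 on GRCm38 (union of exons). Alternatives were TMM factors (edgeR 4.0.16, R 4.3.3), DESeq2 1.42.0 size factors, other totals, lengths, count minimums and introns, and each column left out. Python 3.11.15, numpy 2.4.6, pandas 2.3.3 and scipy 1.17.1 were used.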

Additional observations from a re-analysis of the deposited data

Results flagged for a closer look

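In the 2 blocks of 8 columns, 35 sets of values were examined for a single column that lies far from the others, and 12 had one. For normally distributed values chance flags about 1 in 20, and the rate for skewed levels with many zeros, as here, was not measured. The blocks are not replicate groups. In the first BRP block, BRP568 stood apart in Gria1, at 98.2 CPM and 70.0% of the subunits per kb, BRP570 in the Gria4 share, at 9.89%, BRP571 in Cacng2, at 5.61 exonic CPM, and BRP572 in Cacng2, at 19.3 intronic CPM. In the F block, F1 stood apart in Cacng2, at 172 exonic CPM, F7 in Cnih2, at 7.25 CPM, and F11 in Cacng8, at 2.96 CPM. Intronic levels stood apart in F6 for Gria3, at 251 CPM, and for Cacng2, at 3185 CPM, in F24 for Cacng3, at 2071 CPM, and in F16 for Cacng8, at 28.2 CPM.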

How the results depend on the processing

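No paired analysis was possible because the columns carry no replicate numbers. Of 64 values under other settings, 57 stayed within 1 SD over the block's columns (for numbers of columns, within 1.5 times). The other 7 were as follows, and their causes were not tested. With DESeq2 size factors the median Gria sum was 2017 CPM in the second BRP block and 10601 CPM in the F block. With intronic counts added, the auxiliary sum was 33.3 CPM in the first BRP block and 205 CPM in the F block. The Gria2 share of the second BRP block was 72.5% without division by length, 72.8% by coding length and 35.0% from introns. Of 140 values with 1 column left out, 0 moved by 1 SD or, for numbers of columns, by 1.5 times. The numbers of columns could not move that far, since every column passed. With 1 column left out, the Gria2 share ran from 26.2% to 42.1% in the first BRP block. It ran from 53.3% to 55.2% in the second and from 30.5% to 38.4% in the F block. With F11 and F12 averaged as 1 column, a choice made after seeing the data, the F medians were 3772 CPM for the Gria genes, 3.31 CPM for the auxiliary genes, 30.5% for the Gria2 share and 38.0% for the intronic part. In F16, with 355 Gria counts, depth limits every level under 3.58 CPM.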
